A study of Mus musculus with 4 samples.

Results

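Src-family kinases, the kinase SYK and a set of myeloid signalling proteins carry signals from immune receptors to calcium release and the actin skeleton, and their messenger RNAs are described here in cultured mouse microglia treated with lysophosphatidylserine (LysoPS), a phospholipid with a single fatty acid chain. The set was given by gene name and has 9 members: the kinases Lyn, Fgr, Syk and Btk, the lipase Plcg2, the exchange factors Vav1 and Dock2, and the adaptors Lcp2 and Hcls1. All 9 were found among the 51826 gene models of the count table, 1 model each, and all 9 were among the 19057 models that passed the filter on low counts. The series compares primary microglia of C57BL/6 mice, untreated (mock, 2 libraries), with the same kind of culture treated with LysoPS for 4 h (2 libraries). In both groups the cells came from newborn brains without meninges, grew for 2 weeks and were shaken off the culture. The treatment protocol speaks of a single treated replicate, but the characteristics of 2 samples name LysoPS. The series title names GPR34, a receptor for LysoPS. The labels of the 4 libraries name no genetic alteration of Gpr34, which says nothing about its RNA level.

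In macrophages and microglia, many receptors that bind antibody, lipids, integrin ligands or cell debris have no kinase of their own. Src-family kinases phosphorylate tyrosines in their signalling chains, SYK docks on these tyrosines and is activated, and it then phosphorylates adaptors such as SLP-76 (encoded by Lcp2). The adaptors bring together BTK, phospholipase C-gamma 2 and VAV1, which lead to calcium signals, protein kinase C and RAC, while HS1 (encoded by Hcls1) and DOCK2 act on branched actin and on RAC. Several of these proteins have a close relative that is found in most cell types, and this pairing orders the comparison of families further on.

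Total counts per library ranged from 30001098 to 45193959. Levels are normalised read counts (CPM, with library sizes scaled by the trimmed mean of M values, TMM), given for each library, and group values are mean ± SD (n = 2). Fold changes compare LysoPS with mock in edgeR's quasi-likelihood test, and p-values were adjusted by Benjamini-Hochberg over all 19057 tested models, with a call at an adjusted p under 0.05. The labels do not state what separates the replicates (culture, litter or library), so the p-values measure the spread between these libraries, which may be technical. The cultures held RNA of other cells. The summed level of 10 astrocyte markers lay between 9865 and 10961 CPM in mock and between 5114 and 5840 CPM after LysoPS. For 20 microglia and macrophage markers the sum was 3563 to 3920 CPM in mock and 6605 to 7208 CPM after LysoPS. This sum holds 21 gene models, since 2 overlapping models of Itgam both enter. The less certain of these went from 0.0325 and 43.3 CPM in mock to 232 and 353 CPM after LysoPS. In bulk RNA, a change in the number of cells of a type and a change in RNA per cell cannot be told apart.

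All 9 genes were higher after LysoPS, with fold changes from 2.40 for Dock2 to 6.79 for Syk. Of all tested models, 12.8% were called higher and 12.6% lower. In each of the 9 genes both LysoPS libraries lay above both mock libraries, as in 32.5% of the tested models. The median log2 fold change was 2.37 over the 9 genes and -0.01 over all tested models. The genes fell into 2 ranges: Syk, Lcp2, Hcls1, Fgr, Vav1 and Lyn stood between 2.34 and 2.76 on the log2 scale, and Plcg2, Btk and Dock2 between 1.27 and 1.31. In the order of all tested models by log2 fold change, 1.09% had a larger value than Syk and 4.33% a larger value than Dock2.

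**Figure D1:**
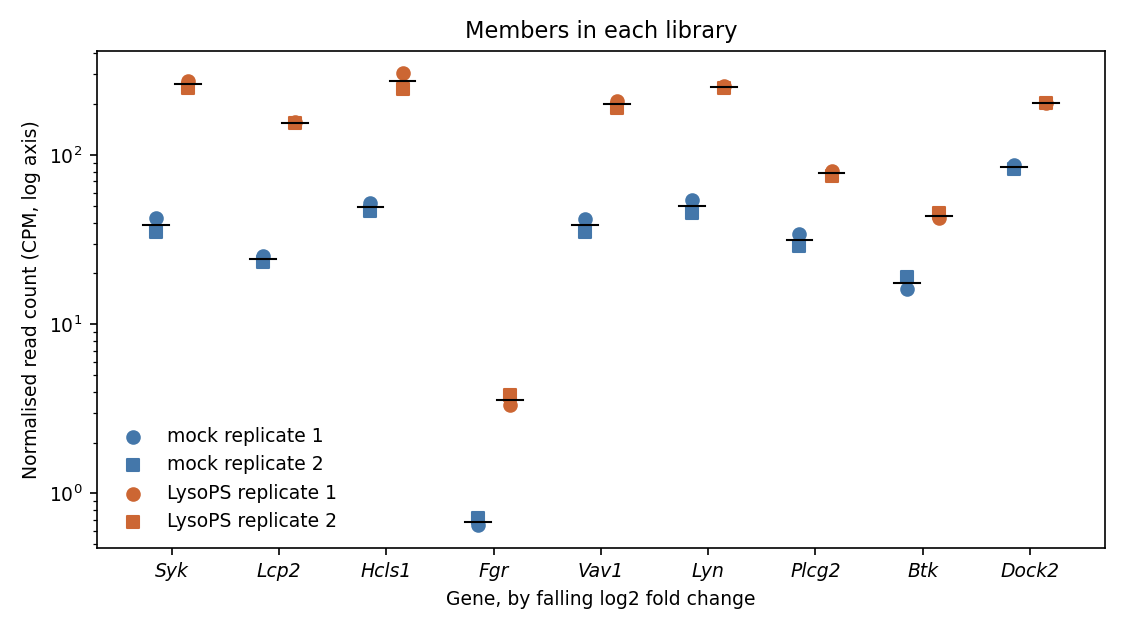
Normalised read count (CPM, log axis) of the 9 genes in each of the 4 libraries, with mock in blue and LysoPS in orange, circles for replicate 1, squares for replicate 2 and a black line at each group mean. In every gene both LysoPS libraries lie above both mock libraries, and Fgr is the lowest gene in both groups.

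Lyn (ENSMUSG00000042228, GRCm38 chromosome 4, 3678115 to 3813122, plus strand) encodes a Src-family kinase that phosphorylates both activating and inhibitory receptor chains. It stood at 54.4 and 45.7 CPM in the mock libraries and at 256 and 249 CPM in the LysoPS libraries. The groups were well separated, with a log2 fold change of 2.34 (SE 0.104, adjusted p = 0.000457 by edgeR's quasi-likelihood test). An antisense long noncoding gene, Gm26857, shares 248 exon bases with Lyn. It had 4 and 0 counts in the mock libraries and 32 and 36 in the LysoPS libraries, 72 in all. Since it is not stated whether the libraries keep strand, reads of that stretch may not have been told apart, and Lyn itself had at least 1675 counts per library.

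Fgr (ENSMUSG00000028874, chromosome 4, 132974095 to 133001910, plus strand) encodes a Src-family kinase known from neutrophils, monocytes and macrophages. It was the scarcest of the 9 genes, with 20 and 31 counts in the mock libraries and 112 and 168 in the LysoPS libraries. These counts correspond to 0.649 and 0.717 CPM in mock and 3.35 and 3.84 CPM after LysoPS. Fgr thus rose by 2.39 on the log2 scale (SE 0.220, adjusted p = 0.00274 by edgeR) from a level near the lower end of what was tested. The transcript length that its deposited counts and FPKM values imply differed by 1.34 times between libraries, more than in any other of the 9 genes, where the ratio was at most 1.09.

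Syk (ENSMUSG00000021457, chromosome 13, 52583173 to 52648792, plus strand) encodes the kinase that binds the phosphorylated receptor chains, and it showed the largest difference of the 9. Its levels were 42.3 and 35.0 CPM in mock and 273 and 251 CPM after LysoPS. The mock libraries differed from each other by far less than either differed from the LysoPS libraries (log2 fold change 2.76, SE 0.118, adjusted p = 0.000441 by edgeR). Btk (ENSMUSG00000031264, chromosome X, 134542336 to 134583570, minus strand) encodes the TEC-family kinase that acts after SYK and activates phospholipase C-gamma 2. It stood at 16.3 and 19.0 CPM in mock and at 42.4 and 45.2 CPM after LysoPS, a log2 fold change of 1.31 (SE 0.110, adjusted p = 0.00218 by edgeR). Both LysoPS libraries were thus more than double either mock library for Btk, a smaller step than for Syk.

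Lcp2 (ENSMUSG00000002699, chromosome 11, 34046920 to 34092295, plus strand) encodes SLP-76, a scaffold for VAV1 and phospholipase C-gamma. It was at 25.3 and 23.4 CPM in mock and at 156 and 155 CPM after LysoPS. The spread within each group was small, and Lcp2 had the smallest p-value of the 9 genes (log2 fold change 2.68, SE 0.0798, adjusted p = 0.000335 by edgeR). The gene 4930469K13Rik on the other strand shares 282 exon bases with it and had 5 counts in all libraries together. Plcg2 (ENSMUSG00000034330, chromosome 8, 117498291 to 117635142, plus strand) encodes the lipase that makes inositol trisphosphate and diacylglycerol. Its levels were 34.0 and 29.1 CPM in mock and 81.0 and 75.4 CPM after LysoPS (log2 fold change 1.31, SE 0.106, adjusted p = 0.00193 by edgeR), so Plcg2 and Btk moved by about the same factor.

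Vav1 (ENSMUSG00000034116, chromosome 17, 57279100 to 57328031, plus strand) encodes the exchange factor of blood cells that loads RAC with GTP when phosphorylated. It stood at 42.1 and 35.4 CPM in mock and at 208 and 191 CPM after LysoPS, with a log2 fold change of 2.37 (SE 0.113, adjusted p = 0.000498 by edgeR). Hcls1 (ENSMUSG00000022831, chromosome 16, 36934983 to 36963212, plus strand) encodes HS1, the blood cell relative of cortactin and a substrate of Src-family kinases and SYK. It was at 52.0 and 46.6 CPM in mock and at 305 and 248 CPM after LysoPS, where LysoPS replicate 1 was the higher library (log2 fold change 2.49, SE 0.128, adjusted p = 0.000589 by edgeR). Dock2 (ENSMUSG00000020143, chromosome 11, 34226815 to 34783892, minus strand) encodes a RAC exchange factor of blood cells that needs no phosphorylated tyrosine to act. It had the highest CPM of the 9 in mock, 87.0 and 82.7, and reached 205 and 203 after LysoPS. Its fold change was the smallest of the 9 and its replicates among the closest (log2 fold change 1.27, SE 0.0666, adjusted p = 0.000615 by edgeR). An antisense gene that shares 460 exon bases with Dock2, 4930403D09Rik, had no count in any library.

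The order of levels between genes was read from the deposited TPM values, which are corrected for transcript length. In mock, Hcls1 was the most abundant (56.9 ± 2.93 TPM). Lyn (32.6 ± 3.83 TPM), Vav1 (30.4 ± 2.38 TPM) and Dock2 (29.6 ± 0.766 TPM) followed with overlapping ranges. Syk (18.3 ± 2.74 TPM), Btk (16.4 ± 2.55 TPM), Plcg2 (16.0 ± 1.43 TPM) and Lcp2 (15.7 ± 1.41 TPM) formed a lower level in which neighbours did not differ beyond their spread, and Fgr lay far below them at 0.510 ± 0.150 TPM. After LysoPS, Hcls1 remained first (280 ± 33.2 TPM), before Lyn (143 ± 1.99 TPM), Vav1 (134 ± 4.02 TPM) and Syk (113 ± 3.35 TPM). Lcp2 (85.5 ± 1.77 TPM) then stood above Dock2 (63.0 ± 0.887 TPM), the reverse of their order in mock. Plcg2 (35.1 ± 0.585 TPM) and Btk (35.1 ± 1.42 TPM) could not be told apart, and Fgr was again last (2.08 ± 0.215 TPM).

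Promoter windows were examined because the 9 genes moved in the same direction. RefSeq promoters (GRCm38.p6) were matched for 8 of the 9 genes, not for Lyn. The 250 bases before each start site were searched on both strands for the core GAGGAA and the longer form GAGGAAGT of the binding motif of PU.1, the lineage factor of macrophages, for the general ETS core GGAA that both contain, for the AP-1 motif TGANTCA, the TATA box TATAAA and, by name, the NF-kappaB motif. GAGGAA was found in Syk, Vav1 and Dock2 and occurs in 23.3% of all RefSeq promoter windows of this length. The Syk match, 9 bases before the start site, lies in bases that are also annotated as exon, and the other Syk window held no match. GAGGAAGT was found in Vav1, against 2.44% of all windows. GGAA was in all 8 genes, against 93.4%. TGANTCA was found in Hcls1 (6.75% of all windows), TATAAA likewise in Hcls1 (12.4%), and the NF-kappaB motif in none (7.25%). A match describes these letters only and is no evidence of binding, and a missing match covers only this window. Shown are the windows of Vav1 and Dock2, in which the first base of a GAGGAA match lies 11 and 9 bases before the start site (Dock2 holds another at 164 bases), and those of Hcls1 and Lcp2, which rose most among the genes without a match. The letters in capitals are GAGGAA or its reverse complement, and the windows end before the first annotated exon.
Vav1, chr17:57278850-57279099, plus strand: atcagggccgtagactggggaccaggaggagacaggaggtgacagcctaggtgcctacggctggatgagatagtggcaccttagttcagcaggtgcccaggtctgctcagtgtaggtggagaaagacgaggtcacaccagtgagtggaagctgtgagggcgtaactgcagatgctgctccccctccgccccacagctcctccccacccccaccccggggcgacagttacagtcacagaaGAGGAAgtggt
Dock2, chr11:34783906-34784155, minus strand: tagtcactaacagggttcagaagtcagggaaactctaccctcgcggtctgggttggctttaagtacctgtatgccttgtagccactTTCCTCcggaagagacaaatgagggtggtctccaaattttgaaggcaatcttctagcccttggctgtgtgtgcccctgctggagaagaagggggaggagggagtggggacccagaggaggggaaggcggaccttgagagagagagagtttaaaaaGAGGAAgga
Hcls1, chr16:36934733-36934982, plus strand: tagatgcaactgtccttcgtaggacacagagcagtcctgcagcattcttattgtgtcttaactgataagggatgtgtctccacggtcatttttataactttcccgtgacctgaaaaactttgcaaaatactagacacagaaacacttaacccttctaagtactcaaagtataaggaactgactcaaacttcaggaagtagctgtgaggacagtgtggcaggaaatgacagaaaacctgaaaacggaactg
Lcp2, chr11:34046678-34046919, plus strand: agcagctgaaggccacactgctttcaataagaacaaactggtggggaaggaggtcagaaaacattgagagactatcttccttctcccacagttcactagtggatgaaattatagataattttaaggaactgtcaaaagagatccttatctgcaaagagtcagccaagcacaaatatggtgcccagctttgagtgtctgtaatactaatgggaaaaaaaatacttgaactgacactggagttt

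In the protein families of the 9 genes, the relatives that are found in many cell types were not called higher. A missing call does not show that a gene was unchanged. Among the other Src-family kinases tested, none was called lower by edgeR, DESeq2 or limma-voom, and 1 was lower at an unadjusted p under 0.05. The number of them called higher is not reported here. Fyn (log2 fold change 0.12, SE 0.126), Src (-0.07, SE 0.0801) and Yes1 (-0.31, SE 0.148), the broadly expressed Src-family kinases, did not pass. Blk, known from B cells, was too scarce to be tested. Without LysoPS replicate 2, 2 of the other Src-family kinases were called lower.

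The counts of lower genes were similar in the other families. Among the 7 tested genes of a list with the other TEC-family kinases, Zap70, Plcg1, Vav2 and Vav3, edgeR called none in either direction, and 1 was lower at an unadjusted p under 0.05. DESeq2 and limma-voom called none. With the replicate block 1 was called lower, and with the filter of 5 CPM in 2 libraries 1 was called lower, not necessarily the same gene. Tec, a TEC-family kinase found beyond blood cells, had a log2 fold change of -0.10 (SE 0.0927), against 1.31 for Btk. Plcg1, the broadly expressed phospholipase C-gamma, was at 103 and 101 CPM in mock and 89.3 and 82.7 CPM after LysoPS (log2 fold change -0.25, adjusted p = 0.0694 by edgeR), and both LysoPS libraries were lower where Plcg2 had risen. Vav2 (0.13, SE 0.0741) and Vav3 (-0.18, SE 0.138) did not pass either. Cttn, which encodes cortactin, was at 236 and 220 CPM in mock and 209 and 204 CPM after LysoPS (log2 fold change -0.15, adjusted p = 0.178 by edgeR), while Hcls1 rose. Dock1, the broadly expressed relative of Dock2, had a log2 fold change of -0.24 (SE 0.0903, adjusted p = 0.111 by edgeR). Zap70, the T cell relative of Syk, was at 0.617 CPM or less in every library.

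**Figure D2:**
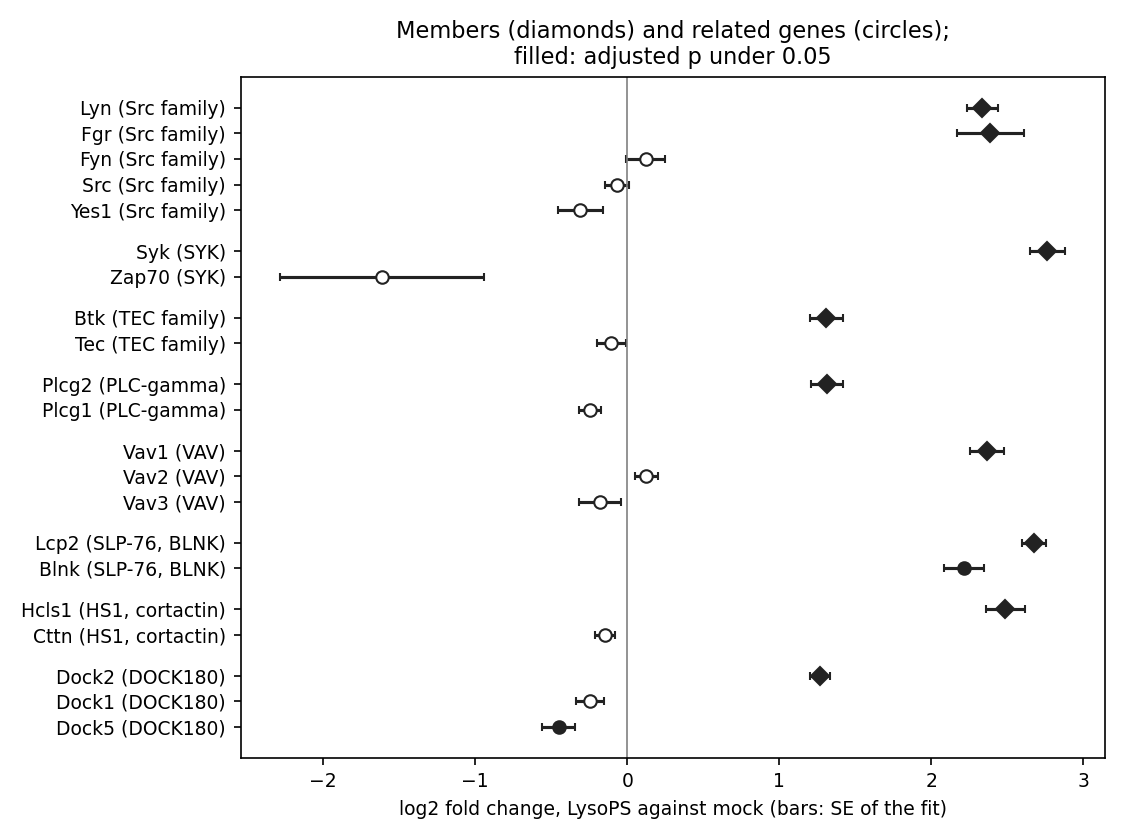
Log2 fold change of LysoPS against mock with the SE of the fit for the 9 genes (diamonds) and related genes of the same families (circles), filled where the adjusted p was under 0.05. The 9 genes and Blnk lie at 1.27 or above, and the other relatives lie between -0.45 (Dock5) and 0.13 (Vav2), except Zap70 at -1.61.

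The make-up of the families shifted toward the 9 genes. Of the summed TPM of 9 Src-family kinases, Lyn held 21.7% and 17.1% in the mock libraries and 38.5% and 40.5% in the LysoPS libraries. Fgr held at most 0.629% in any library. Btk held 28.4% and 31.5% of the TPM of 5 TEC-family kinases in mock and 51.9% and 54.7% after LysoPS, and Plcg2 went from 22.9 ± 1.34% to 46.1 ± 0.920% of that of both phospholipase C-gamma genes. Among the VAV genes the share of Vav1 went from 37.5 ± 3.23% to 74.7 ± 1.34%, so that it outweighed Vav2 and Vav3 together after LysoPS. Hcls1 held 25.8 ± 0.720% of the sum of Hcls1 and Cttn in mock and 66.8 ± 4.18% after LysoPS. Dock2 moved from 31.2 ± 1.32% to 58.5 ± 2.54% of the sum of Dock1, Dock2 and Dock5. Syk held nearly all of the sum of Syk and Zap70 in both groups (96.9 ± 1.08% and 99.9 ± 0.112%). These shares do not depend on library size, but they can change with the mix of cells in a culture. After LysoPS the astrocyte marker sum was 0.526 times that of mock, and the microglia and macrophage marker sum 1.85 times. What part this mix has in the shares was not tested. With 2 libraries against 2 an exact permutation test cannot go below p = 0.333, so the difference between relatives was described and not tested.

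**Figure D3:**
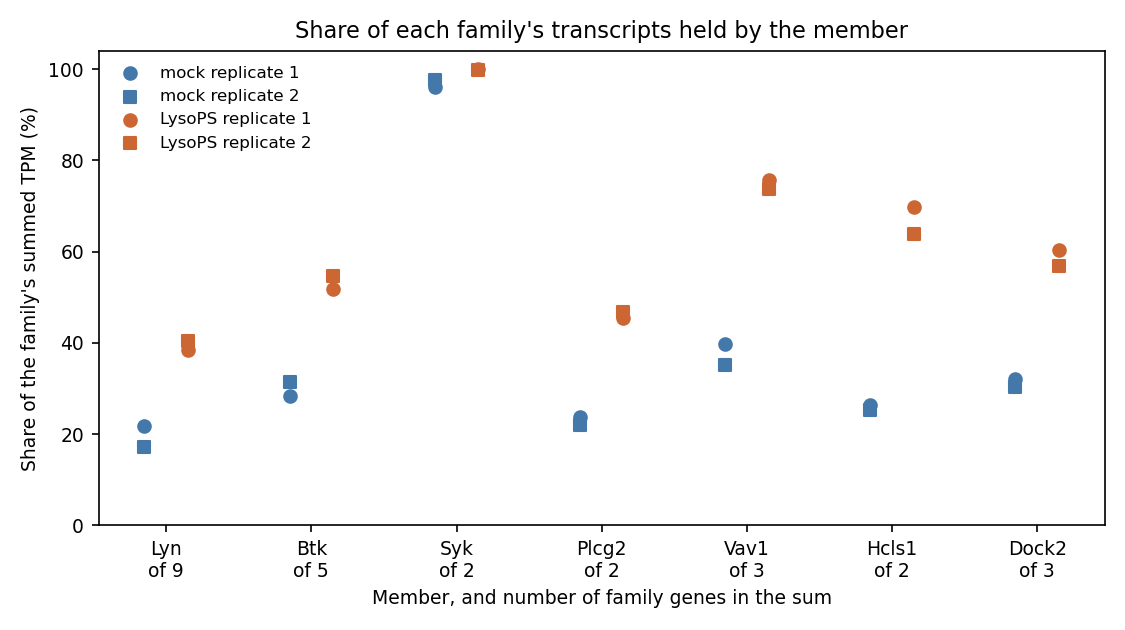
Share of the summed TPM of a protein family (percent) that Lyn, Btk, Syk, Plcg2, Vav1, Hcls1 and Dock2 hold, in the 4 libraries, with mock in blue and LysoPS in orange; the number of genes in the sum stands under each name. Apart from Syk (96.9% in mock and 99.9% after LysoPS on average), the shares lie between 17.1% and 39.8% in mock and between 38.5% and 75.7% after LysoPS.

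Markers of other cells moved in the same libraries. Of 10 astrocyte markers 9 were called lower and their median log2 fold change was -0.96, and of 8 fibroblast markers 3 were called lower and 1 higher. Other types did not all fall. Among 8 oligodendrocyte markers 4 were called higher and 1 lower, with a median of 0.37. Among 6 neuron markers 1 was called higher and 0 lower, and among 5 tested endothelial markers 2 were called lower and 0 higher. Of 21 gene models for the 20 microglia and macrophage markers, 13 were called higher, 2 lower and 6 did not pass, with a median of 0.46 and a highest value of 3.73 (the less certain of a pair of overlapping Itgam models). Syk, Lcp2, Hcls1, Fgr, Vav1 and Lyn each had a larger log2 fold change than 19 of the 21 marker models, and Plcg2, Btk and Dock2 than 16 of them. Relative to the summed CPM of these 21 models in the same library, Syk went from 10.8 and 9.82 per 1000 CPM of markers to 37.9 and 38.0. On this scale Lcp2 rose by 3.46-fold, Hcls1 by 3.02-fold and Lyn by 2.74-fold. Dock2 differed by 1.30-fold, Plcg2 by 1.35-fold and Btk by 1.35-fold. The Btk difference was close to its spread (0.43 on the log2 scale, SD 0.30). Adgre1, which encodes F4/80 and went from 167 to 1978 CPM, accounted for 57.2% of the rise of the marker sum. Without it, a choice made after its values were seen, the factors were 4.94 for Syk, 3.67 for Lyn and 1.74 for Dock2. What part the make-up of the cultures has in the differences of the 9 genes was not tested.

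**Figure D4:**
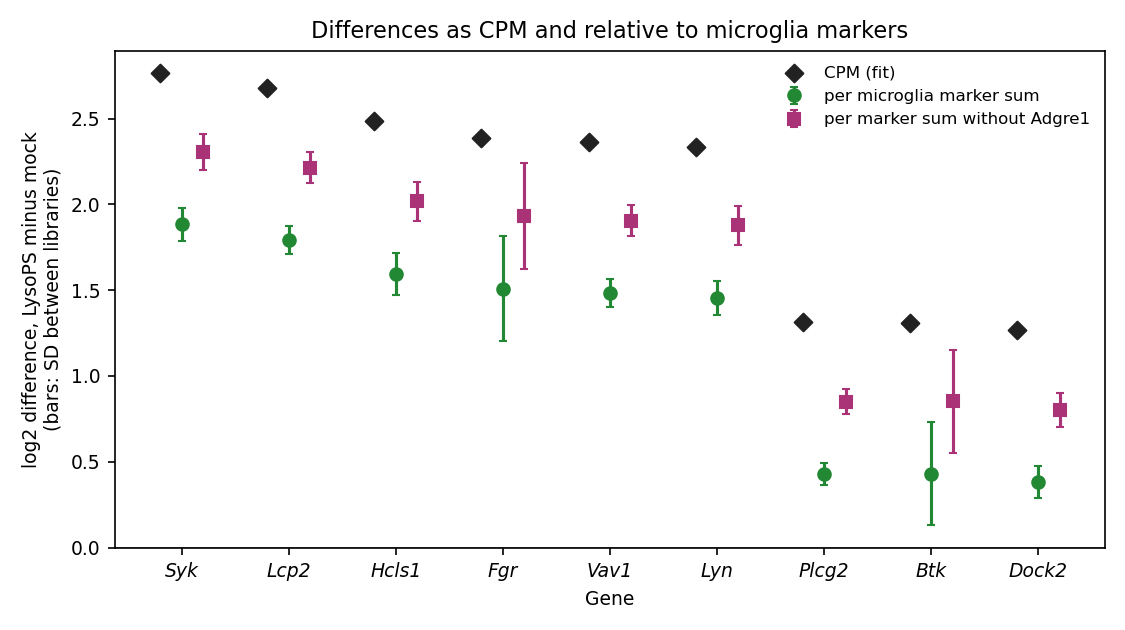
Log2 difference between LysoPS and mock for the 9 genes, as CPM in the fit (black diamonds), relative to the summed CPM of the microglia and macrophage markers (green circles) and relative to that sum without Adgre1 (purple squares); bars are SDs from the spread between libraries. All points lie above 0, and Plcg2, Btk and Dock2 lie lowest on each scale.

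Lymphocytes, mast cells and granulocytes also use these proteins. Of 10 lymphocyte markers, Cd3d, Cd3e, Cd8a and Ncr1 had no count in any library, and the sum of all 10 was 4.00 to 4.80 CPM in mock and 7.16 to 7.77 CPM after LysoPS. Of 8 markers of mast cells and granulocytes, Mpo, Fcer1a, Ly6g, S100a9 and Mcpt4 had no count in any library. Their sum, 149 to 163 CPM in mock and 57.3 to 69.4 CPM after LysoPS, came nearly all from Kit, which other brain cells express too. The sum of 6 dendritic cell markers was at most 11.8 CPM in any library. Fgr, at most 3.84 CPM, was the only one of the 9 genes below the summed lymphocyte markers.

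Receptors and signalling chains upstream of SYK were called higher more often than all tested models, and lower about as often. Of 17 gene models for 16 such genes, 9 were called higher, 2 lower and 6 did not pass. Their median was 1.62 on the log2 scale. The share called higher was 52.9%, against 12.8% of all tested models, and the share called lower was 11.8%, against 12.6%. The Fc receptor chain Fcer1g rose by 1.93 on the log2 scale and the integrin chain Itgb2 by 1.62, and the Fc receptor Fcgr1 (1.90) and the lectin receptor Clec4e (3.92) rose as well. Tyrobp, which encodes the signalling chain DAP12, changed least among those named here as higher (0.57, from 176 and 165 to 264 and 241 CPM), and it narrowly lost its call without mock replicate 2 (adjusted p = 0.0502). The lipid receptor Trem2, which signals through DAP12, fell by 0.80 on the log2 scale, from 103 and 96.6 to 58.2 and 56.3 CPM (adjusted p = 0.00285 by edgeR). Fcgr3 fell by 0.47, and this call was lost on leaving out mock replicate 1 (adjusted p = 0.114 by edgeR) or mock replicate 2 (adjusted p = 0.0581).

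Other adaptors of the pathway and its inhibitors rose beside the 9 genes. Of 16 tested adaptors, 10 were called higher and 6 did not pass, with a median of 0.65 and none lower, also at an unadjusted p under 0.05, by DESeq2 and by limma-voom. Blnk, a relative of SLP-76, rose from 31.9 and 25.7 to 140 and 126 CPM, a log2 fold change of 2.21 that is close to the 2.68 of Lcp2. Fyb, which encodes the SLP-76 partner ADAP, rose by 2.25 and Pik3ap1, an adaptor for phosphoinositide 3-kinase, by 2.37, and Skap2, a partner of ADAP, by 0.94. Of 21 tested gene models for inhibitors of Src-family kinases and SYK, 15 were called higher and 6 did not pass, with a median of 0.73. None was lower by edgeR, DESeq2 or limma-voom, and 1 was lower at an unadjusted p under 0.05. Sla, which encodes an adaptor that promotes receptor degradation, rose from 14.4 and 10.7 to 101 and 95.2 CPM, a log2 fold change of 2.97 that exceeds that of Syk. The docking protein genes Dok3 (2.47) and Dok2 (1.72) and the inhibitory receptor gene Pirb (2.23) rose too, although Pirb has near-identical relatives whose reads may not have been told apart. Csk, which encodes the kinase that switches Src-family kinases off, rose by 0.73 on the log2 scale (adjusted p = 0.00383 by edgeR), less than Lyn or Fgr. Thus activating and inhibitory parts of the pathway were higher in the same libraries.

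Further downstream the changes were uneven, with 5.26% of the tested genes called lower against 12.6% of all tested models. Of 19 genes after phospholipase C-gamma and VAV1, 9 were called higher, 1 lower and 9 did not pass, and the median was 0.45 on the log2 scale, with 3 lower on leaving out LysoPS replicate 2 and 2 lower with the replicate block. Prkcb, which encodes a protein kinase C that diacylglycerol activates, rose from 18.9 and 13.0 to 138 and 148 CPM (3.17). The phosphoinositide 3-kinase genes Pik3cg (2.08) and Pik3cd (1.41) and the transcription factor gene Nfatc2 (1.08) rose. Rasgrp3, which encodes a RAS exchange factor that diacylglycerol recruits, fell by 2.15, from 62.0 and 63.7 to 13.6 and 14.7 CPM (adjusted p = 0.000393 by edgeR). The products of Rasgrp3 and Prkcb both bind the diacylglycerol made by phospholipase C, and they moved in opposite directions.

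Among RAC, DOCK and ELMO genes, 6 of 14 were called higher, 2 lower and 6 did not pass, with a median of 0.21. The share called higher was 42.9%, against 12.8% of all tested models. The share called lower, 14.3%, was near the 12.6% of all tested models. Rac2, the RAC of blood cells that DOCK2 and VAV1 load, rose from 54.1 and 40.3 to 689 and 593 CPM, a log2 fold change of 3.77 that exceeds those of all 9 genes. Elmo1, the partner of DOCK2, rose by 1.36, close to Dock2 itself, and Dock10 and Dock8 rose by 1.59 and 0.82. Dock5 and Elmo3 fell by 0.45 and 0.76. Both calls were lost on leaving out mock replicate 1 (adjusted p = 0.0960 and 0.0820 by edgeR) or mock replicate 2 (0.155 and 0.106), and that of Dock5 also on leaving out LysoPS replicate 1 (0.0556). Of 15 genes for WASP, WAVE and actin assembly, 8 were called higher, 1 lower and 6 did not pass, with a median of 0.59, and 2 were lower on leaving out LysoPS replicate 2 or with the replicate block. Coro1a (1.79), Was (1.61) and Lcp1 (1.49), actin regulators of blood cells, rose, and Lsp1, an actin-binding protein gene of leukocytes, fell by 1.64, from 31.7 and 33.6 to 10.9 and 10.2 CPM.

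**Figure D5:**
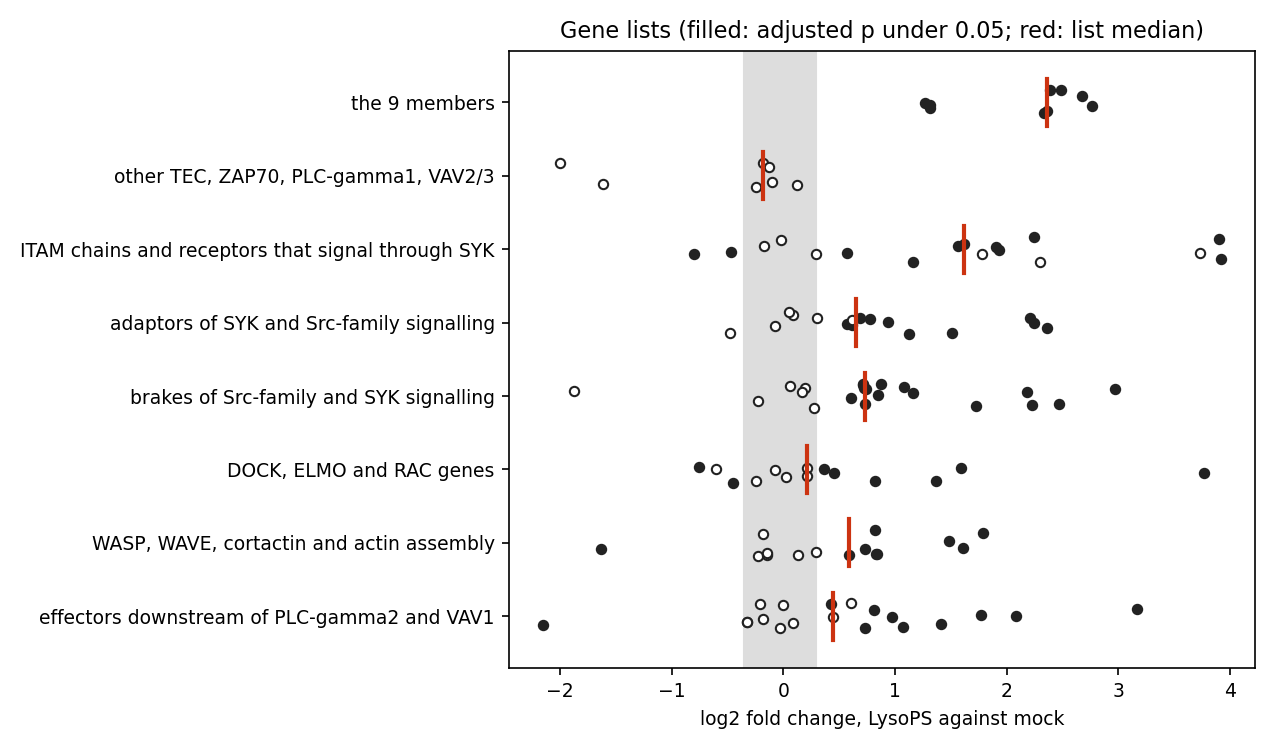
Log2 fold change of LysoPS against mock for the 9 genes and for each tested gene model of 7 lists, filled where the adjusted p was under 0.05, with list medians in red; the grey band holds the middle part of all tested models, from the lower to the upper quartile (-0.35 to 0.29). The medians of the list with the other TEC kinases (-0.18) and of the RAC, DOCK and ELMO genes (0.21) lie inside the band, and those of the receptors (1.62), inhibitors (0.73), adaptors (0.65), actin genes (0.59) and downstream genes (0.45) lie above it.

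The genes whose pattern over the 4 libraries was most like that of Syk, by the root mean square distance of centred log2 CPM among 12626 genes with a mean of at least 5 CPM, were Cp (0.0317), Rassf4 (0.0516) and Pim1 (0.0536). Those nearest to Dock2, the gene with the smallest change, were Rab32 (0.00987), Lipa (0.0213) and Nfkb1 (0.0248). Within a distance of 0.2, Syk had 47 genes and Dock2 had 310, so patterns like that of Dock2 were more common in these libraries.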

How the data were processed

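Messenger RNA of 4 mouse microglia libraries (2 mock, 2 LysoPS) was measured by paired-end sequencing of poly-A-selected RNA, per the labels' protocols. HISAT2, StringTie, Trimmomatic 0.36 and FastQC 0.11.2 are listed with the build GRCm38 in the submitters' processing notes. For the counting program, its strand setting and the annotation release the entry is: not given in the sources used here. The deposited counts are raw whole numbers per gene model. The deposited TPM values are corrected for length by the authors and were used for levels between genes and for shares. The deposited FPKM values, also made by the authors, served only to derive the implied transcript length.

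Counts were tested with edgeR 4.0.16 in R 4.3.3 (filterByExpr with a minimum count of 10, TMM factors from 0.966 to 1.04, quasi-likelihood F test with 2 residual degrees of freedom, Benjamini-Hochberg over 19057 models, two-sided, threshold 0.05). The SE of a fold change is its size divided by the square root of F. The biological coefficient of variation was 0.150. The scripts were tested on simulated data. Alternatives were DESeq2 1.42.0 and its size factors, limma-voom (limma 3.58.1), other filters, robust dispersion, a replicate block, a fold threshold of 1.5 and each library left out. Named list genes were at most the 4 with the smallest p in each direction with at least 5 CPM, plus close relatives of the 9 genes; Tyrobp, Csk, Itgam, Adgre1, Kit, Blk, and the markers and list genes at 0 were named after their values were seen. The 9 genes and all lists were chosen with earlier results of these data known. Some genes of the lists are not reported here. Overlapping genes come from GENCODE M21, promoters from RefSeq GRCm38.p6.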

Additional observations from a re-analysis of the deposited data

How the results depend on the processing

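All 9 genes were called higher under DESeq2 size factors, no filter, the DESeq2 test, limma-voom, robust dispersion, the replicate block, a fold threshold of 1.5 and without each library in turn. The filter of 5 CPM in 2 libraries kept 8 of them, all called, and removed Fgr. Over these alternatives the log2 fold change ranged from 2.63 to 2.91 for Syk, from 2.28 to 2.48 for Fgr and from 1.23 to 1.30 for Dock2, and the highest adjusted p of the 9 genes was 0.0127, for Fgr without mock replicate 2.

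Over all genes, 4854 models were called, 1064 against a fold of 1.5, and between 2165 (without mock replicate 2) and 5356 (without LysoPS replicate 2) when a library was left out; the cause was not tested. With the replicate block 5433 were called. Replicate numbers were not taken as pairs: the deviations of the replicate 1 libraries from their group means correlated by 0.0775 across genes. Of 176 list counts under alternatives, 164 stayed within 1.5 times the reported count. Of 64 list models called, 47 were called in every fit that left out 1 library. Fgr, with 20 and 31 mock counts, is the member that depth limits most.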
